A study of Mus musculus with 10 samples.

Results

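Transcripts of 32 mouse genes of the endoplasmic reticulum (ER) folding machinery and the integrated stress response were followed in cultured macrophages derived from mouse bone marrow. The 32 genes were given as a list of symbols. All 32 matched a row of the deposited table. Of these, 31 averaged 10 or more normalized reads per library and were tested together with all 12455 genes at that level, out of 57010 rows in all. The exception was Chac1, a glutathione-degrading enzyme induced by ATF4, whose mean was 7.63, and the next lowest were Trib3 at 51.2 and Phgdh at 98.4. Chac1 lay between 1.92 and 13.3 in the 10 libraries and was not tested.

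The macrophages came from wild-type (WT) mice or from mice lacking WASp (WKO), the blood-cell protein encoded by Was that activates branched actin assembly. All cells had been grown for 7 days in RPMI medium with 20 ng/mL recombinant mouse M-CSF, the macrophage growth factor. Cells were either left unconfined or held for 1 h under silicone micropillars at a height of 3 µm. This gave 2 WT unconfined, 2 WKO unconfined, 3 WT confined and 3 WKO confined libraries, each made from polyadenylated RNA out of 5 ng of total RNA. The labels give no strain, sex, age or number of mice, and do not say whether replicates came from separate mice or cultures, so the p-values measure only the spread between these libraries. The design asks how loss of WASp, confinement and the combination of both changed gene expression.

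Secreted and membrane proteins fold in the ER with the help of chaperones such as BiP (Hspa5) and of protein disulfide isomerases, and proteins that fail to fold are exported for degradation. When unfolded proteins build up, the sensors IRE1 alpha (Ern1), PERK (Eif2ak3) and ATF6 start the unfolded protein response. IRE1 alpha splices the mRNA of Xbp1, ATF6 is cut to release a transcription factor, and both raise chaperone and degradation genes. PERK phosphorylates the translation factor eIF2 alpha, as other kinases do on amino acid shortage, heme shortage or viral RNA. This integrated stress response lowers general translation but favours translation of ATF4, which raises genes of amino acid synthesis and transport. Macrophages depend on this machinery to secrete cytokines and lysosomal enzymes.

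Recovered depth was between 13295701 and 19329908 reads per library, so that 1 read was worth a normalized read count of 0.785 to 1.20, and 3 reads, taken as the detection floor, 2.35 to 3.59. Was checked the genotype labels: it lay between 1308 and 1649 in the 5 WT libraries and between 96.9 and 154 in the 5 WKO libraries. The 8 macrophage markers were present in every library, with summed normalized read counts between 196391 and 320603, whereas the T cell and NK cell markers Trac and Ncr1 were at 0 in all 10 and the summed 5 markers of that list did not exceed 8.88. The 3 WKO confined libraries were the most dispersed: the median SD of a member within a group was 0.165 on the log2 scale there, against 0.057, 0.079 and 0.094 in the WT unconfined, WKO unconfined and WT confined groups. WKO confined replicates 1 and 5 differed most from the rest of their group, and for some members results are also given without 1 of them. In bulk RNA, fewer cells of a type and less RNA per cell cannot be told apart.

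Per kilobase of annotated exon, the most abundant members were the lectin chaperone Calr (calreticulin) at a mean of 8328 normalized reads per kilobase over the 10 libraries, Hspa5 at 4379, the disulfide isomerase Pdia3 at 3808, the HSP90 chaperone of the ER lumen Hsp90b1 at 3298 and the membrane lectin chaperone Canx (calnexin) at 2135. Calr alone held 24.7% of the summed level of the 31 members, and the first 4 held 58.8%. The sensors were far less abundant, with Atf6 at 282, Ern1 at 169 and Eif2ak3 at 90.7 normalized reads per kilobase. The lowest levels were those of the pseudokinase Trib3 at 24.1 and the serine synthesis enzyme Phgdh at 39.6. Exons of 11 members overlap those of other genes in the annotation, which leaves their counts uncertain where the use of strand is not given; these are Eif2ak3, Ddit3, Cebpg, Ppp1r15b, Hsp90b1, Dnajb9, Manf, Pdia3, Pdia4, Pdia6 and Syvn1.

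Promoters of the members were searched for the DNA motifs through which the response is known to act, in the 250 bases upstream of each RefSeq start (GRCm38.p6), on both strands. Entries were found for 27 of the 32 members. A member was counted once if any of its entries held a match, whereas the share of all promoters is over single entries. The ER stress response element ERSE, which is CCAAT and CCACG with any 9 bases between them and is bound by NF-Y together with ATF6 or XBP1, was present in 8 of these 27 (29.6%) and in 37 of all 32851 promoters (0.113%). The members that hold it are Calr, Canx, Creld2, Dnajc3, Hsp90b1, Hspa5, Pdia6 and Syvn1. ERSE-II, which is ATTGG and CCACG with any 1 base between them, was found in Herpud1 alone among the members and in 0.0304% of all promoters. An ATF4-type element, spelled TGATGNAA, was found in Asns, Chac1 and Herpud1, which is 11.1% of the members against 3.45% of all promoters. The UPRE core TGACGTGG was in none of the 27 windows and in 0.563% of all promoters. ERSE, ERSE-II and UPRE share the letters CCACG or their complement and can overlap. The members were listed as genes of this response, so the shares only describe them, and the contrast with all promoters was not tested. The stretches below are shown so that the letters of each motif can be read in the members named; the matched letters are in capitals and each is written 5′ to 3′ on the strand that reads the motif.
Hspa5 ERSE (chr2:34772013-34772055, plus strand): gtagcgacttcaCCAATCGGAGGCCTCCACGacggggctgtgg
Calr ERSE (chr8:84847063-84847105, plus strand): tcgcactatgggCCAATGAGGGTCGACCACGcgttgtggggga
Canx ERSE (chr11:50325788-50325830, minus strand): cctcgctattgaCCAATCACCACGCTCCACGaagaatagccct
Hsp90b1 ERSE, nearer the start (chr10:86705521-86705563, plus strand): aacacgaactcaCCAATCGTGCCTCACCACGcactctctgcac
Hsp90b1 ERSE, farther from the start (chr10:86705626-86705668, minus strand): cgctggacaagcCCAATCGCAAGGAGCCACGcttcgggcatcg
Syvn1 ERSE (chr19:6046520-6046562, plus strand): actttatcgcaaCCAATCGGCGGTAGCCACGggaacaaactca
Herpud1 ERSE-II (chr8:94386361-94386403, plus strand): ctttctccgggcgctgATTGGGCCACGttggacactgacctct
Herpud1 ATF4-type (chr8:94386299-94386342, minus strand): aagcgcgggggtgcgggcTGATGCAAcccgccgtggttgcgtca
Chac1 ATF4-type (chr2:119351031-119351074, minus strand): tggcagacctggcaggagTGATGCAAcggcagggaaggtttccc
Asns ATF4-type (chr6:7693210-7693250, minus strand): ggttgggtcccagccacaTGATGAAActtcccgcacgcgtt

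The Hspa5 element begins 65 bases upstream of the start, the Syvn1 element 44 bases and the Asns element 23 bases. Hsp90b1 was the member with 2 ERSE matches, 107 and 212 bases upstream. A match describes the letters of the window and does not show that a factor bound there in these cells.

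Averaged over the unconfined and confined condition, WKO cells held less RNA of Asns and Phgdh, enzymes that make asparagine and serine, and of the chaperone Hyou1. These 3 fell and no member rose, so that 3 of 31 members passed the limma threshold of an adjusted p under 0.05, all lower, where 5.57% of all tested genes passed, 2.67% lower and 2.9% higher. The same 3 fell when confined cells alone were compared (2.59% of all genes passed, 1.2% lower), and none passed between unconfined cells, where 0.145% of all genes passed. There, 5 members had an unadjusted p under 0.05, as had 9.6% of all genes. In edgeR and in DESeq2 no member passed between unconfined cells either. The averaged WKO effect was below 0 for 21 of 31 members, with a median log2 fold change of -0.11 against 0.00 over all tested genes. In 6 members every WKO library lay below every WT library, and in none above, where 3.33% of all genes lay below and 3.38% above in this way. The averaged comparison uses the same libraries as the single ones and is not independent of them.

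**Figure D1:**
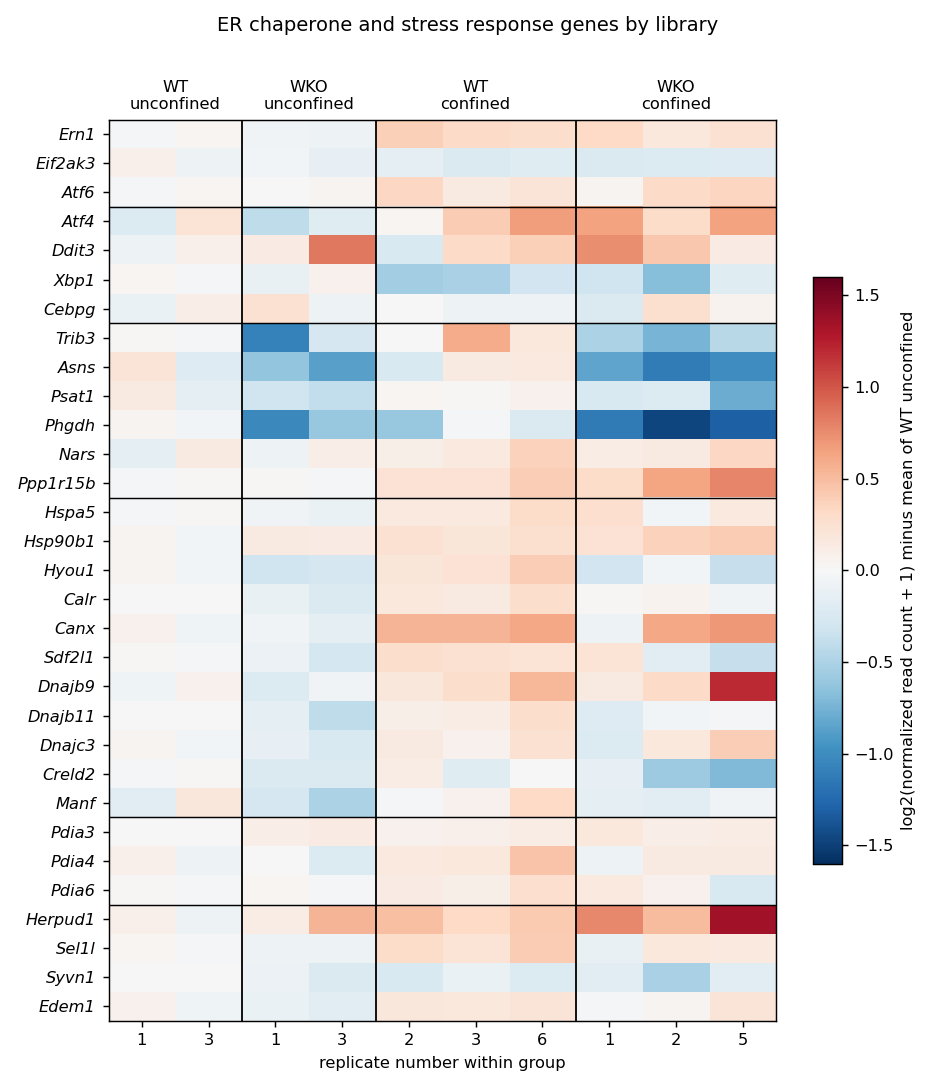
Values of the 31 tested members (rows, grouped by role) in the 10 libraries (columns, by group and replicate number). Colour is log2(normalized read count + 1) minus the mean of the WT unconfined libraries. Asns, Phgdh and Trib3 are blue in all 5 WKO libraries, Canx, Ern1 and Atf4 are red in most confined libraries, and WKO confined replicate 5 holds the darkest red squares, those of Dnajb9 and Herpud1.

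Markers of other cells moved with genotype. All 10 tested stromal markers and all 10 neutrophil and progenitor markers were above 0 for WKO against WT, with 3 and 5 passing, as were 6 of 7 B and plasma cell markers, with 2 passing. Summed stromal markers lay between 187 and 1864 in WT libraries and between 834 and 10373 in WKO libraries. Summed neutrophil markers lay between 2545 and 10837 against 6971 and 29830.0, and summed B and plasma cell markers between 426 and 1195 against 1908 and 6783. In that list Ighm, Igkc and Jchain had means of 2128, 529.9 and 173 over the 10 libraries, and Mzb1 was at 0 in 9 of them. All 3 tested dendritic cell markers were above 0 as well, with none passing here and 1, Flt3, between confined cells. The sum of the 4 dendritic cell markers lay between 10.4 and 45.1 in WT and between 60.4 and 127 in WKO libraries, without overlap, though Xcr1 was at 0 in all 10. Of the 8 macrophage markers 7 were above 0 and 3 passed, and their sum lay between 196391 and 220690.2 in WT and between 256289.7 and 320603 in WKO libraries. The largest part of that sum was Lyz2, with a mean of 146861 over the 10 libraries against 27518 for the next highest, Csf1r. The part of these markers in the results was not tested.

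Averaged over the genotypes, cells confined for 1 h held more RNA of the transcription factor Atf4, the sensor Ern1, the chaperone Canx and the phosphatase subunit Ppp1r15b, and less of Xbp1. Thus Atf4, Ern1, Canx and Ppp1r15b rose and Xbp1 fell, so that 5 of 31 members passed against 6.21% of all tested genes, 4.13% higher and 2.07% lower. Within WT alone and within WKO alone no member passed in limma, where 1.16% and 1.72% of all genes passed. In these comparisons 6 and 7 members had an unadjusted p under 0.05, as had 12.2% and 14.1% of all genes, and DESeq2 called 0 and 2 and edgeR 0 and 0. The averaged effect was above 0 for 23 of 31 members, with a median log2 fold change of 0.19 against -0.02 over all tested genes. In 5 members every confined library lay above every unconfined one (4.46% of all genes) and in 2 below (2.93%).

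The 10 neutrophil and 7 B and plasma cell markers were all below 0 after confinement, with 1 of each passing, and so were the 10 stromal markers, with none passing. Summed neutrophil markers lay between 6891 and 29830.0 in unconfined and between 2545 and 27924 in confined libraries, and B and plasma cell markers between 1156 and 5848 against 426 and 6783. Summed stromal markers lay between 867 and 2691 against 187 and 10373. Of the 3 tested dendritic cell markers 2 were below 0 and none passed, and the sum of all 4 lay between 41.8 and 127 in unconfined and between 10.4 and 89.5 in confined libraries. The part of these markers in the confinement results was not tested.

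**Figure D2:**
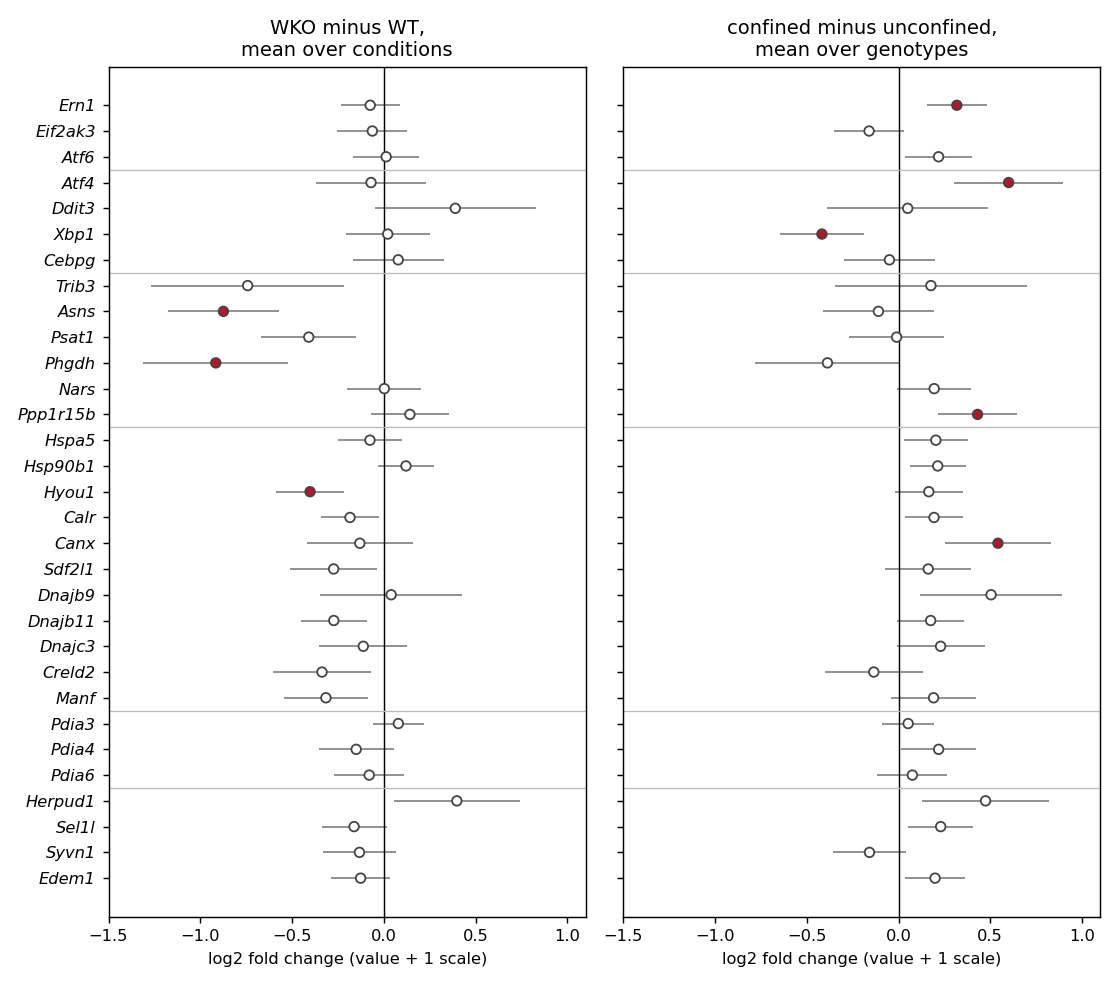
Log2 fold change on the value + 1 scale (points) with its 95% interval (lines) for each tested member, for WKO minus WT averaged over conditions (left) and confined minus unconfined averaged over genotypes (right). Filled points passed the limma threshold; they are Asns, Phgdh and Hyou1 on the left and Ern1, Atf4, Xbp1, Ppp1r15b and Canx on the right.

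Among the sensors, Ern1 (ENSMUSG00000020715, chr11:106394650-106487852, minus strand), the kinase and RNase that splices Xbp1, had normalized read counts of 1203 and 1256 in the WT unconfined libraries, 1178 and 1162 in the WKO unconfined, 1597, 1518 and 1494 in the WT confined and 1531, 1377 and 1461 in the WKO confined libraries. Every confined library lay above every unconfined one in both genotypes. Ern1 rose 1.25-fold after confinement (log2 fold change 0.32, SE 0.0741, 95% interval 0.16 to 0.48, limma adjusted p 0.0279). The effect was nearly equal within WT (log2 fold change 0.32, limma adjusted p 0.219) and within WKO (0.31, limma adjusted p 0.193), neither of which passed.

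Atf6, the sensor that is itself cut into a transcription factor, had normalized read counts of 2299.9 and 2407 in the WT unconfined libraries, 2358 and 2416 in the WKO unconfined, 2959, 2594 and 2718 in the WT confined and 2427, 2901 and 2988 in the WKO confined libraries. Every confined library lay above every unconfined one, the nearest being WKO confined replicate 1, but the difference did not pass (log2 fold change 0.22, limma adjusted p 0.149). Without that library it did, at a limma adjusted p of 0.022. Eif2ak3, the eIF2 alpha kinase PERK, went the other way, with 638 and 566 in the WT unconfined libraries, 583 and 547 in the WKO unconfined, 546, 514 and 524 in the WT confined and 510.0, 516 and 519 in the WKO confined libraries. Here every confined library lay just below every unconfined one, and the difference did not pass (log2 fold change -0.16, limma adjusted p 0.317). No sensor passed between genotypes, with averaged log2 fold changes between -0.07 and 0.01.

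Among the transcription factors, Atf4 (ENSMUSG00000042406, chr15:80255184-80257541, plus strand) had 1486 and 2007 in the WT unconfined libraries, 1301 and 1513 in the WKO unconfined, 1771, 2292 and 2743 in the WT confined and 2709.9, 2123 and 2695 in the WKO confined libraries. The 3 WKO confined libraries lay above both WKO unconfined ones, whereas in WT the confined replicate 2 lay below the unconfined replicate 3. Atf4 rose 1.52-fold after confinement (log2 fold change 0.60, SE 0.136, 95% interval 0.30 to 0.90, limma adjusted p 0.0239). The log2 fold change was 0.83 within WKO (limma adjusted p 0.0572) and 0.37 within WT (limma adjusted p 0.482). The difference between them was 0.46 with a 95% interval of -0.14 to 1.05 and did not pass.

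Xbp1 (ENSMUSG00000020484, chr11:5520659-5525893, plus strand), the substrate of IRE1 alpha, had 1918 and 1848 in the WT unconfined libraries, 1731 and 1981 in the WKO unconfined, 1278, 1314 and 1519.9 in the WT confined and 1509, 1178 and 1646 in the WKO confined libraries. It was lower in each confined library than in each unconfined one and fell 1.34-fold (log2 fold change -0.42, SE 0.105, 95% interval -0.65 to -0.19, limma adjusted p 0.0389). The table counts reads per gene and does not separate spliced from unspliced Xbp1. Ddit3, the ATF4 target CHOP, and Cebpg, a partner of ATF4, did not pass in any comparison. Ddit3 ranged from 96.4 to 206, with the highest value in WKO unconfined replicate 3, and its exons overlap those of Mars1.

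**Figure D3:**
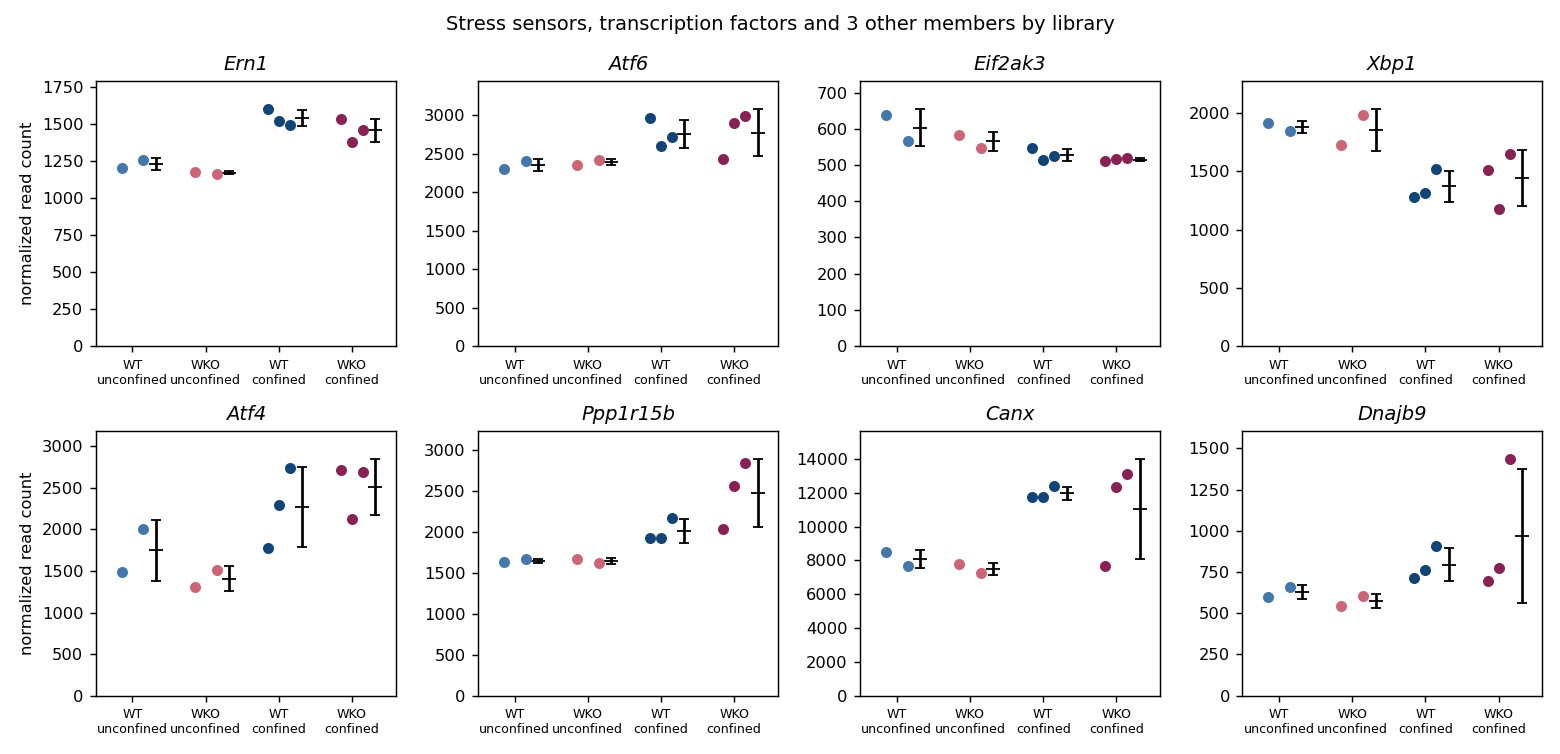
Normalized read counts of the 3 sensors, the transcription factors Xbp1 and Atf4, and Ppp1r15b, Canx and Dnajb9 in each library (points), with mean and SD of each group (bars, n = 2 or 3). Ern1, Atf6, Ppp1r15b and Dnajb9 are higher in each confined library than in each unconfined one, Xbp1 and Eif2ak3 are lower, and 1 WKO confined library of Canx stays at the unconfined level.

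The 4 members with the largest averaged genotype differences, Phgdh, Asns, Trib3 and Psat1, are all targets of the integrated stress response. All were lower in WKO, and of these Asns and Phgdh passed. Herpud1, with its ATF4-type match, and the ATF4 target Ddit3 went the other way without passing (averaged log2 fold changes 0.40 and 0.39). Atf4 itself averaged 741 and 962 normalized reads per kilobase in WT unconfined and confined cells, against 597 and 1064 in WKO. Asns (ENSMUSG00000029752, chr6:7675169-7693254, minus strand), asparagine synthetase and a textbook ATF4 target whose element is printed above, had 424 and 319 in the WT unconfined libraries, 237 and 201 in the WKO unconfined, 309.6, 405 and 409.7 in the WT confined and 205, 168 and 185 in the WKO confined libraries. The highest WKO value, 237, lay below the lowest WT value, 309.6. Asns fell 1.83-fold in WKO (log2 fold change -0.87, SE 0.138, 95% interval -1.17 to -0.57, limma adjusted p 0.00467). It fell within confined cells (95% interval of the log2 fold change -1.38 to -0.62, limma adjusted p 0.0143) and did not pass within unconfined cells (log2 fold change -0.75, limma adjusted p 0.241).

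Phgdh (ENSMUSG00000053398, chr3:98313170-98339990, minus strand), the first enzyme of serine synthesis, had 148 and 140.1 in the WT unconfined libraries, 70.0 and 93.9 in the WKO unconfined, 94.3, 141 and 122 in the WT confined and 65.1, 51.6 and 57.5 in the WKO confined libraries. All 5 WKO libraries lay below all 5 WT libraries, though WKO unconfined replicate 3 and WT confined replicate 2 nearly met. It fell 1.89-fold in WKO (log2 fold change -0.92, SE 0.181, 95% interval -1.31 to -0.52, limma adjusted p 0.0142), and within confined cells its log2 fold change was -1.01 (limma adjusted p 0.0411). Near-identical copies of the Phgdh transcript exist, of which Gm9252 covers 84.6% of it, so that its counts are uncertain.

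Trib3, a pseudokinase that feeds back on ATF4, had 57.9 and 56.6 in the WT unconfined libraries, 26.6 and 47.5 in the WKO unconfined, 56.8, 86.8 and 64.3 in the WT confined and 40.0, 33.7 and 41.9 in the WKO confined libraries. Each WKO library lay below each WT library, but the difference did not pass (log2 fold change -0.74, limma adjusted p 0.0996). Psat1, the next enzyme of serine synthesis, had 1449.6 and 1198 in the WT unconfined libraries, 1052 and 1002 in the WKO unconfined, 1347, 1339 and 1377 in the WT confined and 1115, 1129.6 and 758 in the WKO confined libraries. It too was lower in every WKO library and did not pass (log2 fold change -0.41, limma adjusted p 0.0695). Psat1, like Dnajb11 below, was singled out after its values were seen.

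Ppp1r15b (ENSMUSG00000046062, chr1:133131143-133139783, plus strand), which guides a phosphatase to eIF2 alpha, had 1635 and 1669 in the WT unconfined libraries, 1673 and 1619.8 in the WKO unconfined, 1934, 1932 and 2178 in the WT confined and 2033, 2565 and 2845 in the WKO confined libraries. The unconfined libraries lay close together and all confined ones above them, highest in WKO confined replicates 2 and 5. It rose 1.35-fold after confinement (log2 fold change 0.43, SE 0.0976, 95% interval 0.22 to 0.64, limma adjusted p 0.0238). Its exons overlap Gm26616. Nars, asparaginyl-tRNA synthetase, passed in no comparison and ranged from 2302 to 3270.5 over all libraries. Of the 6 tested targets, 2 fell in WKO and 1 rose after confinement, and the medians of their averaged log2 fold changes were -0.58 and 0.08.

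**Figure D4:**
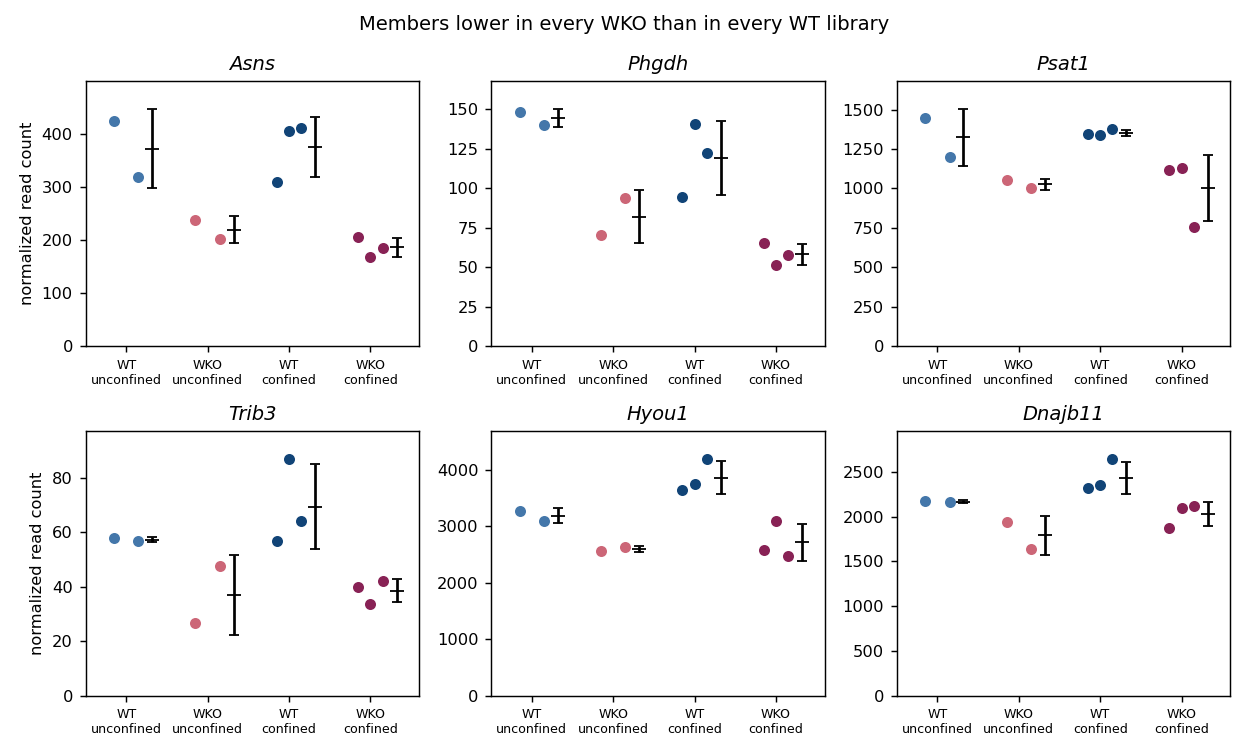
Normalized read counts of Asns, Phgdh, Psat1, Trib3, Hyou1 and Dnajb11 in each library (points), with mean and SD of each group (bars, n = 2 or 3). In all 6 panels each WKO library is below each WT library; Asns, Phgdh and Hyou1 passed the limma threshold.

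Among the 11 ER chaperones and cochaperones, Hyou1 (ENSMUSG00000032115, chr9:44379490-44392369, plus strand), an HSP70-like exchange factor of BiP, had 3275 and 3093 in the WT unconfined libraries, 2558 and 2636 in the WKO unconfined, 3638, 3742 and 4184 in the WT confined and 2577, 3087 and 2474 in the WKO confined libraries. The WKO libraries all lay below the WT ones, with WKO confined replicate 2 reaching nearly the lowest WT value. Hyou1 fell 1.32-fold in WKO (log2 fold change -0.40, SE 0.0843, 95% interval -0.59 to -0.22, limma adjusted p 0.0188), and its log2 fold change was -0.51 within confined cells (limma adjusted p 0.0289).

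Dnajb11, a cochaperone of BiP, had 2176 and 2158 in the WT unconfined libraries, 1942 and 1635 in the WKO unconfined, 2313, 2351 and 2641 in the WT confined and 1877, 2095 and 2112 in the WKO confined libraries. Its libraries did not overlap between genotypes, but the difference did not pass (log2 fold change -0.27, limma adjusted p 0.082). Of the 11, 9 were below 0 for WKO against WT, with a median of -0.18, and Hyou1 was the 1 that passed. Manf, Creld2 and Sdf2l1, small luminal proteins induced by ER stress, had averaged log2 fold changes of -0.32, -0.34 and -0.27 (limma adjusted p 0.109, 0.141 and 0.174). Hsp90b1 and Dnajb9 were the members of the group above 0, at 0.12 and 0.04.

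Canx (ENSMUSG00000020368, chr11:50293961-50325673, minus strand), the membrane lectin chaperone of glycoproteins, had 8483 and 7696 in the WT unconfined libraries, 7768 and 7248 in the WKO unconfined, 11756, 11755 and 12383 in the WT confined and 7650.2, 12370.1 and 13095 in the WKO confined libraries. Both genotypes lay near the same level unconfined, and 5 of the 6 confined libraries lay at 11755 or above. The other, WKO confined replicate 1, stayed within the unconfined range. Canx rose 1.46-fold after confinement (log2 fold change 0.54, SE 0.132, 95% interval 0.25 to 0.83, limma adjusted p 0.034), and without that library by 0.66 in log2 units (limma adjusted p 0.000157).

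Dnajb9, the BiP cochaperone that restrains IRE1 alpha, had 599 and 660.3 in the WT unconfined libraries, 543 and 604 in the WKO unconfined, 711, 765 and 907 in the WT confined and 695, 775 and 1434 in the WKO confined libraries. All confined libraries lay above the unconfined ones, and WKO confined replicate 5 lay far above the rest. The averaged difference did not pass (log2 fold change 0.50, limma adjusted p 0.123). Within WKO the log2 fold change was 0.68 (limma adjusted p 0.242) and 0.36 without WKO confined replicate 5.

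Neither of the 2 most abundant chaperones passed. Hspa5 (BiP) went from 17423 ± 289 to 20020.1 ± 1099 in WT (SD, n = 2 and 3) and from 16484 ± 432 to 19106 ± 2031 in WKO, an averaged log2 fold change of 0.20 (limma adjusted p 0.166). Calr went from 23418 ± 209.7 to 26944 ± 1408 in WT and from 20732 ± 1134 to 23572 ± 924 in WKO (averaged log2 fold change 0.19, limma adjusted p 0.144). Of the 11 chaperones, 10 were above 0 after confinement, with a median of 0.19, and Canx was the 1 that passed. The exception was Creld2, at -0.13. Of the 8 members with an ERSE, 6 were above 0 after confinement with a median of 0.20, and of the other 18 tested members with a promoter entry, 12 with a median of 0.17.

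No protein disulfide isomerase passed in any comparison. Pdia3, the partner of calreticulin and calnexin, ranged from 11183 to 12619 over the 10 libraries and was the steadiest, with averaged log2 fold changes of 0.08 for genotype and 0.05 for confinement. Pdia4 stood at -0.15 and 0.22, and Pdia6 at -0.08 and 0.08.

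No gene of ER-associated degradation passed either. Herpud1, a membrane protein of the degradation complex with both an ERSE-II and an ATF4-type match, had 351 and 316 in the WT unconfined libraries, 362 and 485 in the WKO unconfined, 465, 415 and 447 in the WT confined and 566, 472 and 851 in the WKO confined libraries. It was highest in WKO confined replicate 5, and WKO unconfined replicate 3 overlapped the confined range. Its averaged log2 fold changes were 0.47 for confinement (limma adjusted p 0.104) and 0.40 for genotype (limma adjusted p 0.177). Sel1l and Edem1, which recognise substrates, stood at 0.23 and 0.20 after confinement, and the ubiquitin ligase Syvn1 at -0.16 (limma adjusted p 0.125, 0.144 and 0.342).

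Whether confinement acted differently without WASp was tested as the difference between the 2 confinement effects. No member passed in limma, edgeR or DESeq2, none had an unadjusted p under 0.05 in limma, and 0% of all genes passed, with 2.07% at an unadjusted p under 0.05. The differences ran from -0.25 for Asns to 0.46 for Atf4. For Asns the 95% interval was -0.85 to 0.35 and for Ern1 -0.33 to 0.32. Intervals this wide do not show that the effects were equal.

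The genotype calls held to different degrees when single libraries were left out. Asns passed the averaged comparison without each of the 10 in turn, with log2 fold changes of -0.98 to -0.77. Phgdh lost it without WT unconfined replicate 1 or WKO unconfined replicate 1 (limma adjusted p 0.0693 to 0.0747), and Hyou1 without either of those or WKO unconfined replicate 3 (0.0847 to 0.0881). Between confined cells, Asns lost its call without WT confined replicate 3 or 6 (0.0618 to 0.0764), Hyou1 without either WKO unconfined or any WT confined library (0.0599 to 0.12), and Phgdh without any library but WKO confined replicate 1 (0.0563 to 0.17). With that library left out, 6 members passed both the averaged and the confined comparison, Creld2 and Sdf2l1 among them, while the calls over all 12455 genes went from 694 to 1115 and from 322 to 701.

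The confinement calls were less firm. Leaving out WT unconfined replicate 1, either WKO unconfined library or WT confined replicate 3 ended all 5. Without WT unconfined replicate 3 or WT confined replicate 2 Atf4 alone passed, without WT confined replicate 6 Xbp1 alone, and without WKO confined replicate 2 Atf4 and Ern1. The limma adjusted p where a call was lost was 0.0547 to 0.121 for Atf4, 0.0593 to 0.115 for Ern1, 0.0584 to 0.175 for Xbp1, 0.0526 to 0.104 for Ppp1r15b and 0.0701 to 0.138 for Canx. Their log2 fold changes kept their signs, at 0.49 to 0.71, 0.30 to 0.34, -0.47 to -0.35, 0.38 to 0.50 and 0.47 to 0.66. Without WKO confined replicate 5 all 5 passed, and without WKO confined replicate 1 there were 11, with Atf6, Dnajb9, Dnajc3, Edem1, Hsp90b1 and Sel1l added, all higher. Over all 12455 genes the calls went from 773 to 1807 without that library, 1199 of them higher.

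Further genes of the same pathways were taken from 7 lists with 129 tested genes. In WKO cells 7 of them fell and none rose (averaged over conditions), where 5.57% of all tested genes passed, 2.67% lower. The count over the 129 is near the share of all genes passing in either direction, though the share passing lower was smaller. Of the 7, 4 were aminoacyl-tRNA synthetases, which load amino acids onto tRNAs and belong to the ATF4 programme. All 13 tested genes of that list were below 0, with a median log2 fold change of -0.28, and in 7 of them every WKO library lay below every WT library, as in 3.33% of all genes. Aars had 2029 and 1831 in the WT unconfined libraries, 1379 and 1440.1 in the WKO unconfined, 1992, 1960.3 and 2421 in the WT confined and 1514, 1314 and 1301 in the WKO confined libraries. It fell in WKO (log2 fold change -0.54, SE 0.0901, 95% interval -0.73 to -0.34, limma adjusted p 0.00616) and passed without each library in turn. Mars1, Yars and Hars fell as well, with log2 fold changes of -0.46, -0.39 and -0.36 (limma adjusted p 0.0462, 0.0295 and 0.0468). All 4 overlap exons of other genes, which leaves their counts uncertain.

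Mthfd2, a mitochondrial enzyme of one-carbon metabolism, had 503 and 482 in the WT unconfined libraries, 345 and 211 in the WKO unconfined, 354, 463 and 475 in the WT confined and 248, 225 and 231 in the WKO confined libraries. It fell in WKO (log2 fold change -0.86, SE 0.149, 95% interval -1.19 to -0.54, limma adjusted p 0.00693), also without each library in turn. Slc7a1, a transporter of arginine and lysine, and Wfs1, an ER membrane protein, fell with log2 fold changes of -0.62 and -0.54 (limma adjusted p 0.0205 and 0.0455). In the list of other genes of the ATF4 programme, which holds Mthfd2 and Slc7a1, 15 of 25 tested genes were below 0 and 10 above. Their averaged log2 fold changes ran from -0.86 to 2.38, with a median of -0.15, and none of those above 0 passed. Between confined cells, Aars, Yars, Mthfd2, Slc7a1 and the alanine aminotransferase Gpt2 fell, 5 of 129, where 2.59% of all genes passed, 1.2% lower. These were each lost without any of the 3 WT confined libraries, those of Gpt2, Mthfd2 and Yars also without WKO confined replicate 2, of Mthfd2 without either WT unconfined library, of Slc7a1 and Yars without either WKO unconfined library, and of Slc7a1 without WKO confined replicate 5 (limma adjusted p of 0.0517 to 0.136 where lost). The averaged calls of Mars1, Yars, Hars and Wfs1 held without WKO confined replicate 1 or 5, that of Mars1 also without WT unconfined replicate 3, of Yars without WKO confined replicate 2 and of Hars without WT confined replicate 2, and were lost without any other library (limma adjusted p 0.0813 to 0.201, 0.0511 to 0.14, 0.0692 to 0.173 and 0.0787 to 0.175). That of Slc7a1 was lost without WT unconfined replicate 1 or either WKO unconfined library (limma adjusted p 0.0566 to 0.117).

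After confinement 8 of the 129 rose and none fell (averaged over genotypes), where 6.21% of all tested genes passed, 4.13% higher. This count too is near the share of all genes passing in either direction, though the share passing higher was smaller. Of the 8, 6 belong to the list of other genes of the ATF4 programme. That list did not move as a whole: of its 25 tested genes, 17 were above 0 and 8 below. Their log2 fold changes ran from -1.12 to 2.63, with a median of 0.18. Ppp1r15a (GADD34), the stress-induced counterpart of Ppp1r15b, had 288 and 199.6 in the WT unconfined libraries, 290.1 and 696 in the WKO unconfined, 946, 1310.4 and 1752 in the WT confined and 2112, 1254 and 3474 in the WKO confined libraries. All confined libraries lay above all unconfined ones. It rose 5.01-fold (log2 fold change 2.32, SE 0.301, 95% interval 1.67 to 2.98, limma adjusted p 0.00098), although its exons overlap Tulp2. Gdf15, a stress-induced secreted factor, had 752 and 601 in the WT unconfined libraries, 541 and 563 in the WKO unconfined, 2422, 3869 and 4065 in the WT confined and 5088, 2443 and 6074 in the WKO confined libraries. It rose 6.18-fold (log2 fold change 2.63, SE 0.23, 95% interval 2.13 to 3.13, limma adjusted p 6.48e-05) and passed within each genotype, though not within WT without either WT unconfined library (limma adjusted p 0.0605 to 0.0799). Ppp1r15a also passed within WT (limma adjusted p 0.0195), but not without either WT unconfined library or WT confined replicate 3 or 6 (0.0788 to 0.211). Within WKO it passed as well (limma adjusted p 0.0244), but not without WKO unconfined replicate 1 (0.311).

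The neutral amino acid transporter Slc38a2 and the cystine transporter Slc7a11 rose with log2 fold changes of 1.16 and 1.47 (limma adjusted p 0.00325 and 0.0174). Both passed within WKO too (limma adjusted p 0.0245 and 0.0302), but not without either WKO unconfined library or WT confined replicate 3. For Slc7a11 that call was also lost without WT confined replicate 2. Slc7a1 and the cell death gene Bbc3 (PUMA) rose with 0.53 and 0.76 (limma adjusted p 0.0389 and 0.0253), and so did Ssr1 of the translocon and the CREB3 regulator Crebrf with 0.40 and 0.73 (limma adjusted p 0.0169 and 0.00768). Ppp1r15a, Gdf15 and Slc38a2 passed the averaged comparison without each library in turn. The averaged call of Slc7a11 was lost without WT unconfined replicate 1 or either WKO unconfined library (limma adjusted p 0.0689 to 0.0912), that of Crebrf without WKO unconfined replicate 1 (0.0524), that of Ssr1 without replicate 3 of either unconfined group or WT confined replicate 6 (0.0504 to 0.104). Those of Slc7a1 and Bbc3 held only without WKO confined replicate 1 or 5 and, for Slc7a1, WT unconfined replicate 1 or, for Bbc3, WT confined replicate 3 (limma adjusted p where lost 0.0581 to 0.164 and 0.058 to 0.116). The lists of other eIF2 alpha kinases with eIF2 and eIF2B subunits, of other folding and oxidation genes and of other degradation genes, with 11, 25 and 20 tested genes, held no gene that passed in any comparison.

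**Figure D5:**
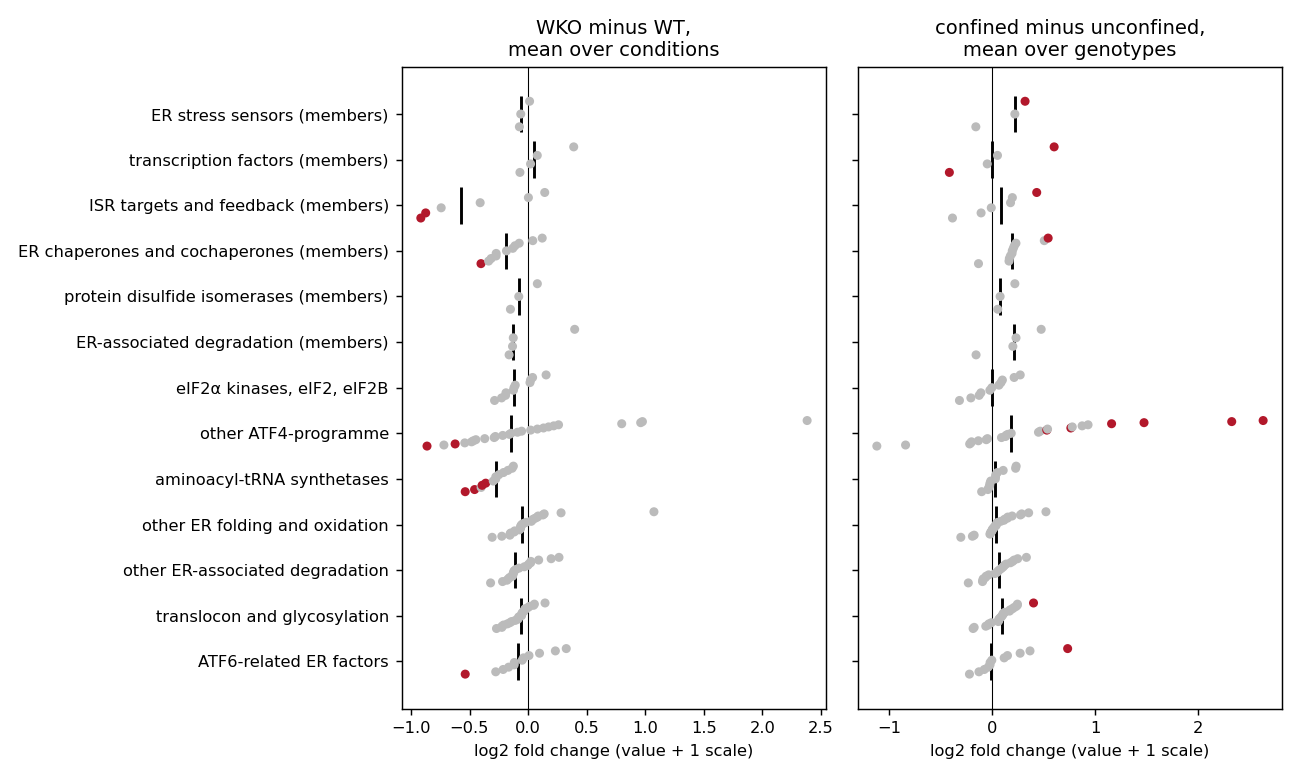
Log2 fold change of each tested gene (points, red where the limma threshold was passed) in the 6 member roles and 7 further lists (rows), with the median of each list (black bar). For WKO minus WT (left) the aminoacyl-tRNA synthetases lie wholly below 0. For confined minus unconfined (right) the genes above 1 belong to the list of other ATF4-programme genes, whose values reach down to -1.12.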

How the data were processed

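RNA sequencing was analysed in 10 mouse macrophage libraries of 4 groups, taken from the titles and the genotype and treatment labels. The authors deposited 1 table whose signal is a normalized read count for each gene. Per the submitters' processing notes, FastQC, Trim Galore and STAR were used with GRCm38 (mm10); versions, the counting tool and the use of strand are not given in the sources used here. In each library 100% of values above 0 were whole multiples of 1 read (tolerance 1e-06), so whole reads were recovered. Such scaling removes depth differences but not those of composition. Floors cover counting error only.

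Genes with a mean of at least 10 were tested as log2(value + 1) with limma 3.58.1 in R 4.3.3 (trend, 1 mean per group, all 10 libraries). Fold changes on this scale understate changes of low genes. There were 7 contrasts, each adjusted by Benjamini-Hochberg over 12455 genes with a threshold of 0.05. Every tested member is accounted for. Values per library are given for members passing in any contrast, the 3 sensors and the 3 largest changes in each single contrast; further pathway genes are named only among those passing, up to 5 per list and contrast. The members and lists were chosen with earlier results of these data known. Exon length, overlap and copies came from GENCODE (GRCm38) and blastn 2.17.0, with a copy counted at 95% identity over at least 20% of a transcript in stretches of at least 100 bases. Members are not replicates, and no test was made over a list. Alternatives were edgeR 4.0.16 and DESeq2 1.42.0 on recovered reads, another pseudocount, filter, scaling and sample set, a replicate block, each library left out and, added after seeing the data, array weights. The fits were tested on simulated counts with the same dispersion in all libraries. That check does not cover the wider spread of the WKO confined libraries.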

Additional observations from a re-analysis of the deposited data

How the results depend on the processing

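At this depth Chac1, with a mean of 7.63, was not tested, and the lowest mean of a tested member was 51.2, that of Trib3. Directions were followed where a named gene passed or was among the 3 largest member changes of a single contrast. They were also followed for the sensors after confinement and for Trib3, Psat1 and Dnajb11 between genotypes, both averaged. Other values, such as differences between the confinement effects, were not followed. None of the followed values changed direction under the 7 other fits and filters, where these were made, or the array weights. None did so in the 10 fits with a library left out. The fit with only the libraries compared was made for the single contrasts, not for the averages or the difference of effects. Among the followed values, 703 stayed on the same side of the threshold, 181 no longer passed and 24 newly passed. A pseudocount of 5, TMM scaling and edgeR gave the same member counts as reported in all 7 contrasts. Between unconfined genotypes and for the difference of effects the count was 0 under every alternative. For WKO against WT in confined cells (3 members) it was 1 with only the libraries compared, 8 with array weights, which give WKO confined replicates 1 and 5 the lowest weights, and 0 to 6 with a library left out. For confinement in WT (0) it was 2 with only the libraries compared, 1 with array weights and 0 to 1 with a library left out. For confinement in WKO (0) it was 1 with a mean of at least 1, 2 in DESeq2, 7 with array weights and 0 to 5 with a library left out. For confinement averaged over genotypes (5) it was 8 in DESeq2, 14 with array weights and 0 to 11 with a library left out. For genotype averaged over conditions (3) it was 5 in DESeq2, 9 with array weights and 1 to 6 with a library left out. With the replicate number as a block, these counts were 1 for genotype in confined cells, 1 for confinement in WKO, 1 for confinement averaged over genotypes and 2 for genotype averaged over conditions. Replicate number 5 occurs only in the WKO confined group and number 6 only in the WT confined group. The block therefore takes up those libraries, and they add nothing to the group comparisons of that fit. Libraries of the same number in different groups correlated between -0.11 and 0.08 in their deviations from the group means, so the numbers are not taken to pair the libraries. Counts over all 12455 genes moved too: for confinement averaged over genotypes from 773 to 1215 in DESeq2, 2220 with array weights, 383 with the block and 288 to 1807 with a library left out, and for genotype averaged over conditions from 694 to 1150, 1804, 799 and 169 to 1115. For genotype in confined cells they went from 322 to 1948 with array weights, 90 with only the libraries compared and 58 to 701 with a library left out, and for confinement in WKO from 214 to 485 in DESeq2, 1735 with array weights and 43 to 1043 with a library left out. The cause of these shifts was not tested.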
